A study of Homo sapiens with 4 samples.

Results

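The genes described here are 33 members of the apoptosis machinery, namely the BCL2 family, the inhibitor of apoptosis proteins (IAPs) with their antagonists, the caspases, and the adaptors of the apoptosome and of the death-receptor complex. They were taken by gene symbol from the 50868 genes counted, and all 33 were found. They were measured by RNA-seq in A549 cells, a human lung adenocarcinoma line, in 2 control libraries (A549-CON, cells carrying the vector without an insert) and 2 libraries of cells overexpressing the deubiquitinase USP12 (A549-USP12). The vector family is given as pLVX, whereas whether the cells were a pool or 1 clone, and how long USP12 had been expressed, is not given in the sources used here. The comparison asks which transcripts differ between cells with and without USP12 overexpression. Nothing in the labels says that the replicates came from separate cultures, so the p-values measure only the spread between these libraries, which may be technical.

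Apoptosis is decided at the outer mitochondrial membrane, where anti-apoptotic BCL2 proteins hold the pore-forming members in check and BH3-only proteins release that hold. Once the membrane is open, cytochrome c and APAF1 assemble the apoptosome, which activates the initiator CASP9, while ligand-bound death receptors activate CASP8 and CASP10 through FADD. IAPs block caspases or ubiquitinate the signalling complexes below TNF receptors, and several of the protective genes are known transcriptional targets of NF-κB.

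Between 14280081 and 16305356 counts fell on genes in each library, and 3 counts, taken as the floor, corresponded to 0.166 to 0.227 CPM (counts scaled to library size with edgeR's TMM method), which covers counting error only. USP12 had 15.2 and 34.4 CPM in control replicates 1 and 2 and 1745 and 2235 CPM in USP12 replicates 1 and 2. On the log2 scale it differed by 6.32 (standard error 0.57, adjusted p = 0.0975 by edgeR's quasi-likelihood test with Benjamini-Hochberg adjustment over 15222 genes). All 10 epithelial and A549 markers were above 3 counts, CDKN2A and CDKN2B, which the line has lost, were at 0 in every library, and 6 of 10 leukocyte markers were at 0 in every library. Of the other leukocyte markers, CD14, CD68 and LYZ were above 3 counts, and the list summed to 53.0 to 112 CPM in A549-CON and 59.8 to 76.9 CPM in A549-USP12. The summed level of 5 fibroblast markers was 2.94 to 14.9 CPM in A549-CON and 16.2 to 20.2 CPM in A549-USP12, and that of 5 endothelial markers 8.59 to 15.4 CPM and 0.504 to 1.45 CPM, with DCN the only marker of these lists at 0 throughout. Mitochondrially encoded transcripts took 13.8% and 14.5% of the counts in the controls and 25.3% and 23.2% in the USP12 libraries, and the part of these markers and transcripts in the values below was not tested. A date-like prefix in the column heading of control replicate 1 is unlike that of the other 3 libraries, and what it stands for cannot be told apart from the library itself.

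Of the 33 genes, 31 passed the filter on low counts. The exceptions were HRK, a BH3-only gene with 0 and 14 counts in A549-CON and 0 and 7 in A549-USP12, and CASP1, the inflammatory caspase that matures interleukin-1β, with 10 counts in control replicate 1 and 0 in the other 3 libraries. No tested member had an adjusted p under 0.05 in edgeR's quasi-likelihood test, in which 0.0% of all genes were called lower and 0.0% higher. BIRC3 was the only member with an unadjusted p of 0.05 or less, at a log2 fold change of -2.06, whereas 4.55% of all genes met that threshold as lower and 3.04% as higher. The edgeR exact test and the DESeq2 Wald test each called 1 member lower, again BIRC3, and 0 higher, beside 1.72% and 1.79% of all genes called lower and 1.1% and 0.874% called higher. Blocking on the replicate number, and keeping all 24800 genes with a count, each in the quasi-likelihood fit, also called BIRC3 alone. Of the genes in these fits, 1.65% and 1.46% were called lower and 1.01% and 0.673% higher. In bulk RNA, fewer cells with a transcript and less transcript per cell cannot be told apart.

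The member with the smallest p was 1 of the 4 IAPs. BIRC3 (cIAP2, an ubiquitin ligase of the TNF receptor complex and a known NF-κB target) gave 667 and 676 counts in control cells against 139 and 160 in A549-USP12. On the CPM scale these were 50.5 and 37.5 against 10.01 and 11.1, so both USP12 libraries lay below both controls. The fitted difference was 4.17-fold lower in USP12 cells (log2 fold change -2.06, standard error 0.44, unadjusted p = 0.0031, adjusted p = 0.274 by edgeR's quasi-likelihood test). The adjusted p was 0.0085 with the edgeR exact test, 0.00374 with DESeq2, 0.0244 without the filter and 0.0416 with the replicate number as a block. Over the 12 alternatives the adjusted p was under 0.05 in 6, which include the fits with either control library left out. In those 2 fits the lone control is assumed to vary like the USP12 libraries. The adjusted p was 0.221 with the GC content offset in the quasi-likelihood fit. With either USP12 library left out it was far above 0.05. The log2 fold change was then -1.99 without USP12 replicate 1 and -2.13 without USP12 replicate 2. The log2 fold change was -2.25 against control replicate 1 alone and -1.83 against control replicate 2 alone.

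BIRC2 (cIAP1), the close paralogue of BIRC3, lies next to it on chromosome 11, 7807 bases downstream. BIRC3 (ENSG00000023445) spans chr11:102317484-102339403 and BIRC2 (ENSG00000110330) chr11:102347211-102378670, both on the plus strand of GRCh38. BIRC2 had 12.1 and 13.6 CPM in the controls and 16.9 and 14.3 CPM in A549-USP12, which is 0.28 on the log2 scale (standard error 0.44, adjusted p = 0.964 by edgeR's quasi-likelihood test). Its groups did not overlap, but the difference was smaller than its standard error. Per kb of transcript, the level of BIRC3 was 2.28 and 1.51 times that of BIRC2 in the control libraries and 0.324 and 0.423 times in the USP12 libraries, so the neighbours changed places in rank. The log2 ratio differed by -2.33 between the groups (exact permutation test, two-sided p = 0.333, the smallest that 2 against 2 libraries can give). An unnamed transcript lies over exons of BIRC3 on the opposite strand, and no source used here says whether fragments were counted by strand.

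The promoters of the pair are shown because these neighbouring genes of like function had different fold changes, and because κB sites are the sequence that NF-κB binds. The 250 bases before the listed start were taken from RefSeq (GRCh38.p14), at chr11:102317234-102317483 for BIRC3 and chr11:102346964-102347213 for the 1 of 2 BIRC2 starts shown, both on the plus strand. Both run 5′ to 3′, and capitals mark matches to the κB consensus, searched on both strands.
BIRC3: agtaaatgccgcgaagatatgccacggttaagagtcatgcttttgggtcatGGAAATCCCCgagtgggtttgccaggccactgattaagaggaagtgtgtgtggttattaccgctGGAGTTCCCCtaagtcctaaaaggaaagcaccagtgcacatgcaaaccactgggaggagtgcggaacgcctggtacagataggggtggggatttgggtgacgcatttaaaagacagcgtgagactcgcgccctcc
BIRC2: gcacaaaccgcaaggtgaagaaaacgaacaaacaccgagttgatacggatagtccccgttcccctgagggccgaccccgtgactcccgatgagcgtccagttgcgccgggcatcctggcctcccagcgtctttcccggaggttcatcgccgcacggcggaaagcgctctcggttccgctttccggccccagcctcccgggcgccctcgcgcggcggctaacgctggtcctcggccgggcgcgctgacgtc
The BIRC3 window held 2 matches, at positions -199 to -190 and -135 to -126 from the start, both reading as the consensus on the opposite strand. Neither BIRC2 window held a match, which says only that these letters are not in the 250 bases. The GC content was 52.4% in the BIRC3 window and 67.6% in the BIRC2 window. Whether the matches bear on the different fold changes of the pair was not tested.

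Promoter windows were listed for 27 of the 33 genes, and those of BCL2L2, BIK, CASP1, CASP10, MCL1 and TRADD were not used here. A κB match was found for 5 of the 27 genes, BIRC3, BIRC6, BMF, CASP2 and CFLAR, or 5 of their 53 windows, against 9.96% of the 35116 windows of all genes. These 5 did not share a direction, as the log2 fold changes were -2.06 for BIRC3, -1.004 for BIRC6, -0.55 for CFLAR, 0.00 for CASP2 and 0.83 for BMF. The interferon-stimulated response element was found for BCL2A1 and RIPK1, in 3 of the 53 windows, against 3.02% of all windows. The interferon-γ activated site TTCNNNGAA was found for BCL2A1 and CASP8, in 2 of the 53 windows, against 6.57% of all windows. These are matches of letters and not measured binding.

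BIRC6, a giant IAP that also carries a ubiquitin-conjugating domain, had 47.7 and 110 CPM in the controls and 32.2 and 46.5 CPM in A549-USP12. Its log2 fold change was -1.004 (adjusted p = 0.795 by edgeR's quasi-likelihood test), and USP12 replicate 2 lay just under control replicate 1. Against control replicate 1 alone the log2 fold change was -0.27, and against control replicate 2 alone -1.48. XIAP, which binds and inhibits caspases directly, had 12.9 and 20.3 CPM in the controls and 19.5 and 6.23 CPM in A549-USP12, which therefore overlapped. Of the antagonists that mitochondria release against IAPs, DIABLO (SMAC) had 107 and 68.6 CPM in the controls and 103 and 89.6 CPM in A549-USP12, within the range of the controls. HTRA2, a mitochondrial protease, had 34.5 and 6.71 CPM in the controls, more than 2-fold apart, with 11.7 and 12.1 CPM in A549-USP12 between them.

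**Figure D1:**
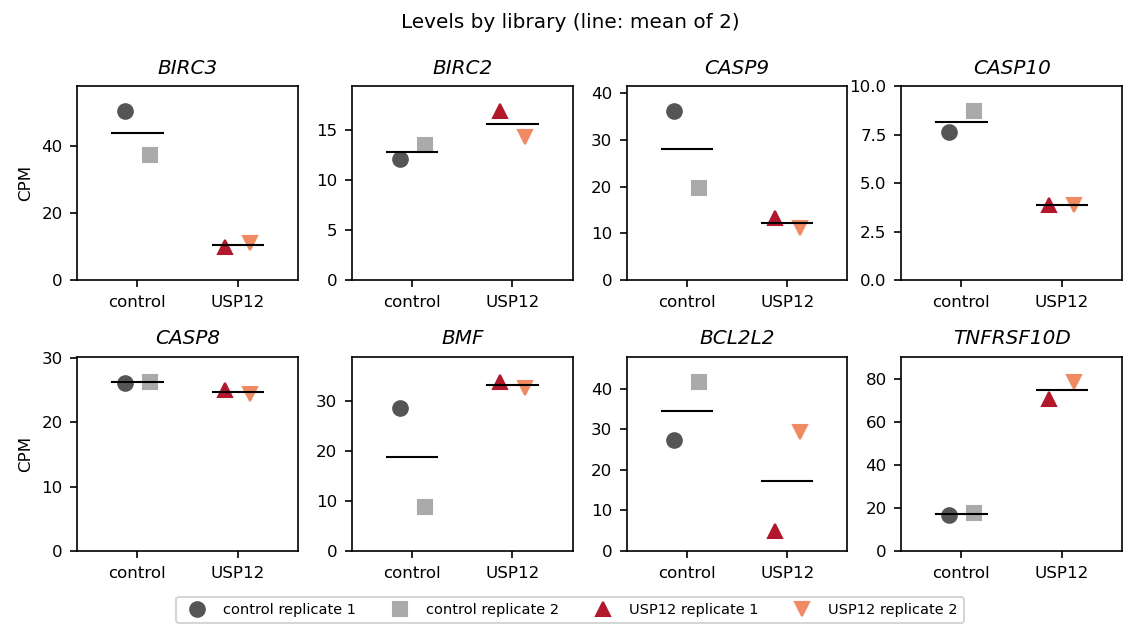
CPM (TMM-scaled, axes from 0) of 8 genes in the 4 libraries, with 1 point per library and a line at the mean of the 2 libraries of each group. BIRC3 was at 37.5 to 50.5 CPM in the controls and 10.01 to 11.1 CPM in A549-USP12, whereas the 2 USP12 libraries of BCL2L2 were at 4.97 and 29.4 CPM.

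Among the caspases and the apoptosome, CASP9 and CASP10 were the members whose USP12 libraries lay below both controls at a log2 fold change of 1 or more in size. CASP9, the initiator caspase of the apoptosome (ENSG00000132906, chr1:15490832-15526534, minus strand), had 477 and 357 counts in the controls and 184 and 160 in A549-USP12. These were 36.1 and 19.8 CPM against 13.2 and 11.1 CPM, 2.29-fold lower (log2 fold change -1.20, standard error 0.49, unadjusted p = 0.0505, adjusted p = 0.661 by edgeR's quasi-likelihood test). By that test the adjusted p of CASP9 was 0.011 when control replicate 2 was left out and 0.143 when control replicate 1 was. APAF1, the scaffold of the apoptosome, had 10.6 and 14.4 CPM in the controls and 6.12 and 8.59 CPM in A549-USP12, with no overlap and a log2 fold change of -0.77 (adjusted p = 0.864 by edgeR's quasi-likelihood test). CYCS, cytochrome c itself, had 69.5 and 164 CPM in the controls and 91.7 and 81.9 CPM in A549-USP12, inside the control range. CYCS has near-identical pseudogene copies, so its counts are uncertain.

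CASP8, CASP10 and CFLAR, the initiator caspases of death receptors and their catalytically inactive relative c-FLIP, form a cluster on chromosome 2. On GRCh38, CFLAR ends 6184 bases before CASP10 (ENSG00000003400, chr2:201182872-201229428), which ends 4014 bases before CASP8 (ENSG00000064012, chr2:201233443-201361836), all on the plus strand. CASP10 had 101 and 157 counts in the controls and 54 and 56 in A549-USP12. On the CPM scale it had 7.64 and 8.70 against 3.89 and 3.88, 2.10-fold lower (log2 fold change -1.07, standard error 0.50, unadjusted p = 0.0757, adjusted p = 0.748 by edgeR's quasi-likelihood test). Its replicates were close in both groups, and the log2 fold change was -0.96 against control replicate 1 alone and -1.16 against control replicate 2 alone. CASP8 had 26.2 and 26.3 CPM in the controls and 24.98 and 24.5 CPM in A549-USP12, a log2 fold change of -0.09. Per kb, CASP10 stood at 0.137 and 0.155 times the level of CASP8 in the controls and at 0.073 and 0.0744 times in the USP12 libraries (exact permutation test, two-sided p = 0.333, again the smallest possible). The ratio of CFLAR to CASP8 per kb was 0.229 and 0.163 in the controls and 0.111 and 0.173 in A549-USP12, which overlapped (exact permutation test, two-sided p = 0.667). CFLAR had 32.9 and 23.5 CPM in the controls and 15.3 and 23.3 CPM in A549-USP12, with USP12 replicate 2 close to control replicate 2. CASP8 and CFLAR share exon bases with another gene on their own strand, so fragments there are uncertain.

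The adaptors of the death-receptor complex were less separated. FADD, which brings CASP8 to the receptors, had 73.5 and 40.0 CPM in the controls and 52.5 and 47.1 CPM in A549-USP12, and TRADD, the adaptor of TNF receptor 1, had 28.5 and 8.59 CPM against 12.2 and 9.56 CPM. In both, the USP12 libraries lay between the controls. RIPK1, the kinase of this complex, had 12.8 and 27.7 CPM in the controls and 27.1 and 32.6 CPM in A549-USP12, so only control replicate 1 stood apart. CASP4, the intracellular sensor of lipopolysaccharide, had 13.9 and 14.4 CPM against 13.2 and 17.1 CPM. CASP6, an executioner caspase, had 6.05 and 6.32 CPM against 8.42 and 10.4 CPM without overlap (log2 fold change 0.60, adjusted p = 0.909 by edgeR's quasi-likelihood test). CASP2, linked to stress and ploidy checkpoints, had 20.7 and 7.20 CPM in the controls and 22.4 and 5.54 CPM in A549-USP12, so each group held 1 high and 1 low library.

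Of the anti-apoptotic BCL2 proteins, BCL2L1 (BCL-XL) was the leading transcript in every library. Levels can be set side by side only per length, here CPM per kb of the canonical transcript. BCL2L1 stood at 349 and 127 CPM per kb in the controls and at 197 and 190 CPM per kb in the USP12 libraries. It made up 93.1% and 76.9% of the summed level per kb of the 5 anti-apoptotic genes in the controls and 85.9% and 83.3% in the USP12 libraries, so the USP12 libraries lay between the controls. MCL1, a short-lived guardian against BAK1, made up 3.69% and 15.9% in the controls and 12.1% and 11.9% in the USP12 libraries. BCL2 itself was listed at 0 in control replicate 1 and made up 0.0832% in control replicate 2, 0.0866% in USP12 replicate 1 and 0.0968% in USP12 replicate 2. Over the mean of the 4 libraries the order per kb among all 33 genes began with BCL2L1 (216), BAD (67.3), DIABLO (62.6) and FADD (31.2 CPM per kb) and ended with BCL2 (0.139), CASP1 (0.0948) and HRK (0.0544 CPM per kb). BAD came before DIABLO through control replicate 1 alone (127 against 73.0 CPM per kb), and DIABLO was the higher in the other 3 libraries. With the length of all annotated exons in place of the canonical transcript, BCL2L1 and BAD remained in the first places, whereas DIABLO moved from rank 3 to rank 6 and CASP4 from rank 10 to rank 21.

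**Figure D2:**
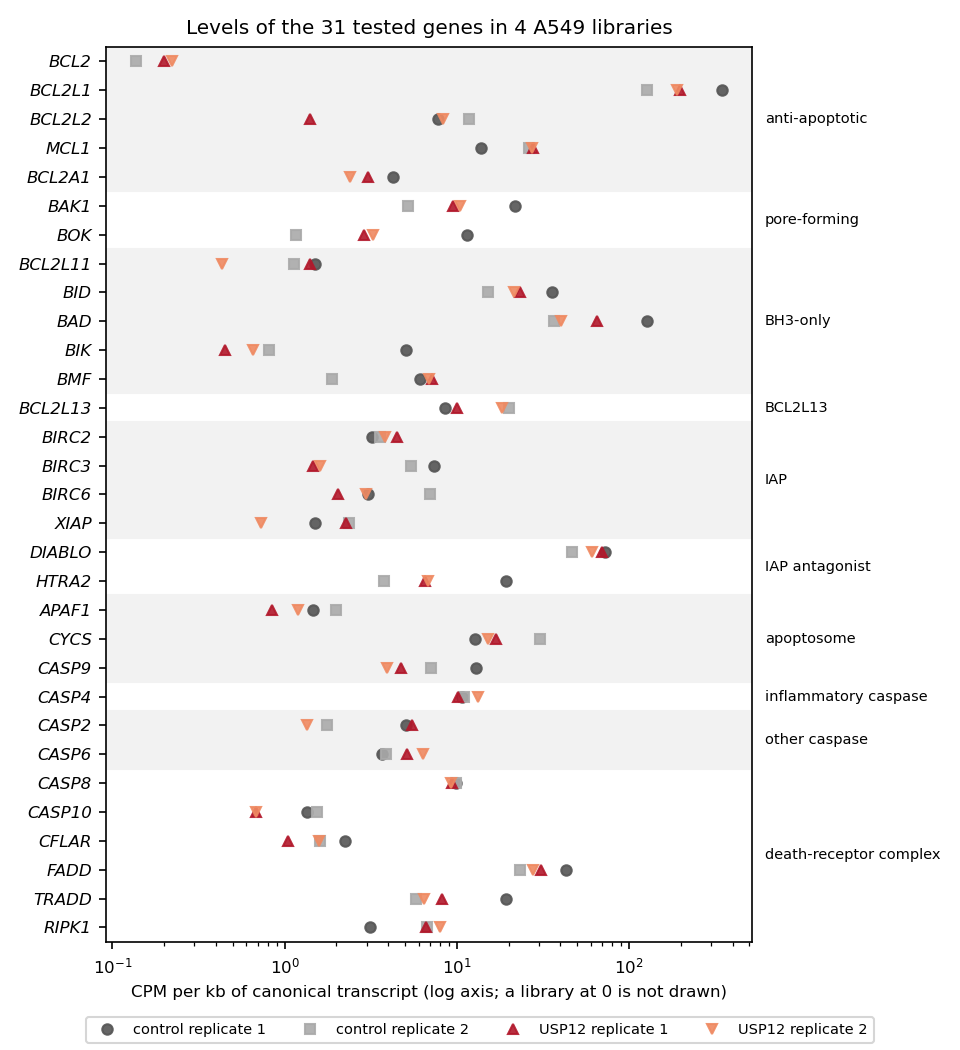
CPM per kb of the canonical transcript (log axis) of the 31 tested members, ordered by role, with 1 point per library. BCL2L1 lay between 127 and 349 CPM per kb in every library, and BCL2 lay under 1 CPM per kb in each library in which it was counted.

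As differences between the groups, MCL1 had 54.6 and 103 CPM in the controls against 109 and 108 CPM in A549-USP12, and BCL2L1 had 898 and 326 CPM against 508 and 490 CPM. MCL1 did not overlap, at a log2 fold change of 0.46 (adjusted p = 0.925 by edgeR's quasi-likelihood test), but was 1.01 against control replicate 1 alone and 0.08 against control replicate 2 alone. BCL2A1, an NF-κB target, had 44 and 0 counts in the controls and 33 and 27 in A549-USP12, and BCL2 had 0 and 17 counts against 19 and 22. Each gene was at 0 in 1 control, so the control side of the fitted log2 fold changes of 0.37 and 1.55 rests on the other control library. A fold change against the control at 0 alone depends on the prior count of the fit. BCL2L2 (BCL-W), outside the rule for single values, had 27.4 and 41.6 CPM in the controls but 4.97 and 29.4 CPM in A549-USP12. Its exons overlap the read-through gene BCL2L2-PABPN1 on the same strand, which had 65 and 189 counts in the controls and 85 and 114 in A549-USP12.

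The pore-forming and BH3-only genes were mostly highest in control replicate 1. BAK1, which opens the outer mitochondrial membrane, had 47.5 and 11.3 CPM in the controls and 20.5 and 22.7 CPM in A549-USP12, and BOK, its relative, had 30.04 and 3.05 CPM against 7.56 and 8.59 CPM. BAD, a BH3-only protein controlled by survival kinases, had 118 and 34.1 CPM in the controls and 60.9 and 37.2 CPM in A549-USP12, and BID, which links CASP8 to mitochondria, had 77.3 and 33.2 CPM against 51.0 and 46.5 CPM. In all 4 genes the USP12 libraries lay between the controls, so the direction depended on the control library. BIK, a BH3-only protein of the endoplasmic reticulum, had 64 and 14 counts in the controls and 6 and 9 in A549-USP12 (log2 fold change -2.38, unadjusted p = 0.0642, adjusted p = 0.712 by edgeR's quasi-likelihood test). BIK passed the filter through its control libraries alone, and its log2 fold change was -3.16 against control replicate 1 and -0.55 against control replicate 2. BMF, released from the cytoskeleton in detached cells, had 28.5 and 8.87 CPM in the controls and 33.8 and 32.6 CPM in A549-USP12, above both controls (log2 fold change 0.83, adjusted p = 0.898 by edgeR's quasi-likelihood test). BCL2L11 (BIM) had 7.64 and 5.82 CPM against 7.13 and 2.22 CPM, and BCL2L13 of the mitochondrial membrane had 42.4 and 99.7 CPM against 49.6 and 91.4 CPM, each with overlap.

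Counted over the set, 21 of the 31 tested members had a lower and 10 a higher point estimate in USP12 cells, where 53.6% of all tested genes were lower and 46.4% higher. The groups did not overlap in 8 members that were lower (BIK, BIRC3, BIRC6, APAF1, CASP9, CASP8, CASP10 and CFLAR), where 17.0% of all genes were lower without overlap. BIK passed the filter through its control libraries alone, so its separation is not independent of the filter. The groups also did not overlap in 5 members that were higher (BCL2, MCL1, BMF, BIRC2 and CASP6), where the share of all genes was 19.5%. The median log2 fold change was -0.37 over the members and -0.06 over all tested genes. It was -0.55 against control replicate 1 alone and 0.11 against control replicate 2 alone, so the direction of this median rested on control replicate 1. By role, the 3 apoptosome genes and the 2 pore-forming genes all had lower point estimates, the 6 death-receptor genes split into 5 lower and 1 higher, and the 5 anti-apoptotic genes into 2 lower and 3 higher. The pore-forming BAK1 and BOK were, however, higher against control replicate 2 alone (0.93 and 1.40). Of the apoptosome genes, CYCS was higher against control replicate 1 alone (0.33), whereas APAF1 and CASP9 were lower against each control.

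The 7 members listed as NF-κB targets (BCL2, BCL2A1, BCL2L1, BIRC2, BIRC3, CFLAR and XIAP) had a median log2 fold change of -0.29. This median was -0.64 against control replicate 1 alone and 0.20 against control replicate 2 alone, so its direction depended on the control library. Of the 7 members, 4 had a lower and 3 a higher point estimate, and BIRC3 alone had an unadjusted p of 0.05 or less. The 7 listed as interferon-responsive were APAF1, BAK1, CASP1, CASP4, CASP8, CASP10 and RIPK1, of which 6 were tested. Their median log2 fold change was -0.26 (-0.29 against control replicate 1 alone and -0.0035 against control replicate 2 alone). Of the 6, 4 had a lower and 2 a higher point estimate, and 0 had an unadjusted p of 0.05 or less. Over all tested genes the median was -0.06 and 53.6% had a lower point estimate. The unadjusted threshold was met by 4.55% of all tested genes as lower and 3.04% as higher.

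Much of the spread of these genes was between the 2 control libraries. These were more than 2-fold apart in 16 of the 31 members, 11 of them higher in control replicate 1 and 5 in control replicate 2. Over all tested genes, 43.5% were more than 2-fold apart, 20.6% higher in control replicate 1 and 22.9% in control replicate 2. The USP12 libraries were more than 2-fold apart in 4 members (BCL2L2, BCL2L11, CASP2 and XIAP) and in 7.9% of all genes. The fold change had opposite signs against the 2 controls in 14 members, where the share over all genes was 50.6%. It was negative against each control in 10 members (22.6% of all genes) and positive against each in 7 (26.9%). With control replicate 2 left out, 10 members reached an adjusted p under 0.05 as lower and 3 as higher by edgeR's quasi-likelihood test, beside 16.7% and 16.3% of all genes. With control replicate 1 left out, 3 were lower and 2 higher, beside 5.89% and 4.93%. BIRC3 was the only member called in both fits. In them, the lone control is assumed to vary like the USP12 libraries.

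**Figure D3:**
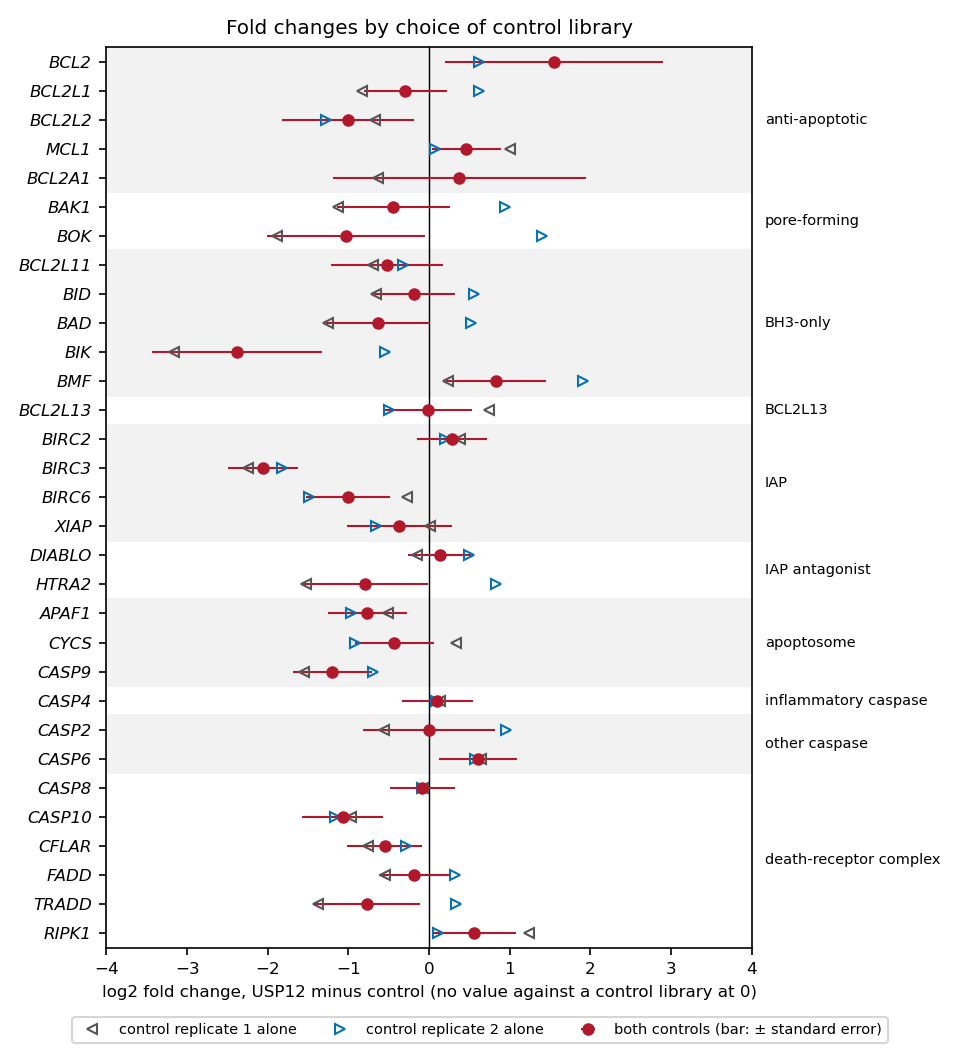
Log2 fold change (USP12 minus control) of the 31 tested members with both controls (points, bars of 1 approximate standard error) and against each control library alone (open triangles). The estimates against each control are close for BIRC3 (-2.25 and -1.83) and CASP10 (-0.96 and -1.16) and lie on either side of 0 for BOK (-1.88 and 1.40).

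The difference between the controls went with the base composition and with the length of the transcripts, which were not separated here. Across the 31 members, the log2 difference of control replicate 1 over control replicate 2 had a Pearson r of 0.51 and a Spearman rho of 0.58 with the GC content of the canonical transcript, and over all tested genes these were 0.55 and 0.60. The same values for the log2 transcript length were -0.63 and -0.66 in the members and -0.28 and -0.34 over all genes. For the difference between the USP12 libraries, the members' r with GC content was -0.05 and rho 0.03, where all tested genes had 0.10 and 0.14. These are descriptions across genes that share their libraries, and the values of BCL2 and BCL2A1 include a library at 0. With a GC content offset for each library, an alternative chosen after the data had been seen, the log2 fold change moved from -1.03 to -0.30 for BOK, from -0.63 to -0.11 for BAD, from -0.77 to -0.26 for TRADD and from -0.44 to -0.03 for BAK1. In other members it moved away from 0, from -0.55 to -0.85 for CFLAR, from -0.53 to -0.78 for BCL2L11, from -0.18 to -0.39 for BID and from -0.09 to -0.31 for CASP8. It was -2.23 for BIRC3 (adjusted p = 0.221), -1.19 for CASP9 and -1.29 for CASP10 with this offset in edgeR's quasi-likelihood fit, in which 0 members were called and 0.106% of all genes were called lower and 0.0398% higher.

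Beyond the 33 genes, 61 other apoptosis genes were listed, of which 47 were tested. None had an adjusted p under 0.05 in edgeR's quasi-likelihood test, and 2 had an unadjusted p of 0.05 or less with a log2 fold change of 1 or more in size, where 4.41% of all genes met this as lower and 2.92% as higher. TNFRSF10D, a decoy receptor for TRAIL that lacks a working death domain, had 224 and 318 counts in the controls and 986 and 1136 in A549-USP12. On the CPM scale these were 16.9 and 17.6 against 71.0 and 78.7, 4.33-fold higher without overlap (log2 fold change 2.11, standard error 0.38, unadjusted p = 0.00141, adjusted p = 0.21 by edgeR's quasi-likelihood test). Its adjusted p was 0.00107 with the edgeR exact test, 0.00109 with DESeq2 and 0.0129 with the replicate number as a block, 0.00393 and 0.00456 with control replicate 1 or 2 left out, but 0.0908 with the GC content offset and 1.000 with either USP12 library left out. Over all 12 alternatives it was between 0.00107 and 1.000, and its log2 fold change was 2.15 and 2.09 against control replicates 1 and 2 alone. TNFRSF1B, TNF receptor 2, had 77 and 12 counts in the controls and 7 and 4 in A549-USP12 (log2 fold change -3.02, adjusted p = 0.63 by edgeR's quasi-likelihood test). It passed the filter through the controls alone, and its log2 fold change was -0.76 against control replicate 2.

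Of the 4 genes given here that complete these families, none had an adjusted p under 0.05 with both controls in the fit. BAX, the main partner of BAK1, had 165 and 40.5 CPM in the controls and 144 and 122 CPM in A549-USP12, so control replicate 2 alone was low. BIRC5 (survivin), an IAP of mitosis, had 26.6 and 29.4 CPM in the controls and 45.4 and 43.6 CPM in A549-USP12, without overlap (log2 fold change 0.67, adjusted p = 0.834 by edgeR's quasi-likelihood test). The BH3-only genes BBC3 (PUMA) and PMAIP1 (NOXA) had log2 fold changes of -0.11 and 0.03, and in both the groups overlapped.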

How the data were processed

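The 4 RNA-seq libraries, 2 control and 2 overexpressing USP12, were grouped by their labels. The authors deposited raw counts, the uniquely mapped fragments on each of 50868 genes. They prepared stranded libraries, trimmed adaptors and removed ribosomal RNA reads with Seqtk, mapped to GRCh38 with HISAT2 2.0.4 and counted with StringTie 1.3.0 (versions from the submitters' processing notes). The annotation release and the strand setting of the counting are not given in the sources used here, so genes that share exons are uncertain (5 members on their own strand, 18 on the other strand).

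From the counts, genes were kept by filterByExpr (minimum count 10, 15222 genes), scaled by TMM and compared with the quasi-likelihood test of edgeR 4.0.16 in R 4.3.3, with Benjamini-Hochberg adjustment over all genes tested. The approximate standard errors were obtained as log2 fold change over the root of F. Log2 CPM used a prior count of 2, whereas the fold changes of edgeR's fits used its default prior count. Transcript length, GC content and positions came from GENCODE release 44, which held 99.2% of the gene identifiers. The step was also run on simulated counts. These held no difference between libraries linked to GC content or length, so the run does not bear on the difference between these controls. Totals were 14280081 to 16305356 counts per library.

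The members, lists and tests were chosen with earlier results of these data known, so no list was tested as a set and no p was adjusted over a list. Values in every library are printed for members with an unadjusted p of 0.05 or less, with a log2 fold change of 1 or more in size without overlap, on the NF-κB or interferon lists, or among the 2 highest of a role. Those of BCL2L2, BCL2L11, BMF and HRK were added after being seen. Of the other apoptosis genes, those that met both limits (unadjusted p of 0.05 or less, change of 1 log2 or more) and 4 fixed family members are named. The results of 2 other genes are not reported here. Alternatives were DESeq2 size factors, no filter, at least 10 counts in every library, DESeq2 1.42.0 (Wald), edgeR's exact test, a replicate block and leaving out each library. A GC content offset, alone and with the block, was added after the data had been seen. No sample column was left unused.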

Additional observations from a re-analysis of the deposited data

How the results depend on the processing

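At an adjusted p under 0.05, edgeR's quasi-likelihood test called 0 genes lower and 0 higher (692 and 463 at an unadjusted p of 0.05 or less). The calls numbered 361 lower and 167 higher with no filter, 273 and 133 by DESeq2, 262 and 167 by the exact test of edgeR, 251 and 153 in the replicate block fit, 16 and 6 after the GC offset, and 115 and 63 for offset plus block. The prior degrees of freedom were 4.15 in the test reported. They were estimated as infinite with the block, without the filter and with either USP12 library left out. By the criterion that joins an unadjusted p of 0.05 or less to a change of 1 log2 or more, 671 genes were lower and 445 higher, against 1173 and 688 without the filter. Among the members, 1 was lower at an adjusted p under 0.05 without the filter, with DESeq2, with the exact test and with the block, and it was BIRC3 in each. By the other criterion 1 member was lower as reported, 2 with DESeq2's size factors and with the block, 3 without the filter, with DESeq2 and with the exact test, 4 with the offset, and 5 lower with 1 higher with offset and block. The median of the members was -0.13 with the replicate block. The log2 fold change of USP12, at adjusted p-values under the threshold, was 6.33 without the filter, 6.31 with DESeq2, 6.32 with the exact test, 6.43 with the block, 6.38 with the offset and 6.37 with both.

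Several directions turned with the processing. With the GC content offset the log2 fold change was -0.16 for BCL2A1, -0.0048 for DIABLO, -0.13 for CASP4, -0.20 for CASP2, 0.050 for FADD, 0.29 for BBC3 and -0.030 for PMAIP1. With offset and block it was 0.022 for BCL2L1, 0.10 for BAK1, 0.029 for BOK, -0.13 for CASP4, -0.30 for CASP2, 0.051 for FADD, 0.29 for BBC3 and -0.00048 for PMAIP1. With the block it was 0.049 for BCL2L13 and -0.13 for CASP2. CASP2 was also at -0.022 under DESeq2's size factors, -0.0017 when every library needed 10 counts and -0.023 in DESeq2. The cause of these turns was not tested.

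With each library left out in turn, lower genes at an adjusted p under 0.05 numbered 21 to 2542 and higher genes 15 to 2475, and by the other criterion 274 to 2049 and 171 to 2371. Members lower at an adjusted p under 0.05 numbered 0 to 10 and higher 0 to 3, and by the other criterion 0 to 8 and 0 to 3. The members' median was -0.55 to 0.11, and USP12 was 5.85 to 7.04. The log2 fold change reached from -0.84 to 0.62 for BCL2L1, -0.64 to 8.04 for BCL2A1 (a control at 0, so dependent on the prior count), -1.13 to 0.93 for BAK1, -1.88 to 1.40 for BOK, -1.60 to 0.085 for BCL2L11, -0.65 to 0.55 for BID, -1.25 to 0.52 for BAD, -0.53 to 0.74 for BCL2L13, -1.41 to 0.23 for XIAP, -0.15 to 0.49 for DIABLO, -1.53 to 0.83 for HTRA2, -0.92 to 0.33 for CYCS, -0.10 to 0.27 for CASP4, -1.33 to 0.95 for CASP2, -0.55 to 0.32 for FADD, -1.38 to 0.34 for TRADD, -0.30 to 1.71 for BAX, -0.53 to 0.49 for BBC3 and -0.12 to 0.21 for PMAIP1. Among the members, calls at an adjusted p under 0.05 were added only by leaving out control replicate 1 or control replicate 2. Without control replicate 1, 8 of 31 members turned direction, without control replicate 2, 6, and without USP12 replicates 1 and 2, 2 and 3.

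Same-numbered libraries deviated together only weakly (correlation across genes 0.152, with 2 pairs), and no source says that a number marks a shared day, so the block was not taken as a pairing. It moved USP12, BIRC3 and TNFRSF10D under the threshold and changed no other member's call. With at least 10 counts in every library, BCL2, BCL2A1 and BIK were not tested. At this depth CASP1 and HRK were at 0 in 3 and 2 of the 4 libraries, and BCL2 and BCL2A1 in 1 control library each.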

Other observations

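Of the other apoptosis genes, 14 did not pass the filter, which asks for enough counts in at least 2 libraries, and were not tested. At 0 in every library were 9 of them, CASP5, CASP14, FASLG, RIPK3, ZBP1, CARD16, CARD17, NLRC4 and AIM2, which allows levels of up to 0.166 to 0.227 CPM per library, for counting error only. They include an inflammatory caspase, CARD-only regulators, the Fas ligand, a DNA sensor and components of necroptosis. XAF1, an interferon-induced antagonist of XIAP, had 2 and 383 counts in control replicates 1 and 2 and 4 and 0 in USP12 replicates 1 and 2, so a single control library carried nearly all of its counts. TNF, the ligand of the TNF receptors, had 30 and 7 counts in the controls and 0 and 0 in the USP12 libraries. XAF1 and TNF were singled out after their values had been seen, and neither was tested.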
